A study of Rattus norvegicus with 20 samples.

Results

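A group of 8 antioxidant, small heat shock and metallothionein genes was described in the left ventricle and brain of control rats and of rats with stress cardiomyopathy (SCM). The genes are those of a list of 9 names and identifiers, and 8 of the 9 had a row among the 24160 features of the count table. They are Hmox1 (ENSRNOG00000014117), Nqo1 (ENSRNOG00000012772), Sod1 (ENSRNOG00000002115), Sod2 (ENSRNOG00000019048), Cat (ENSRNOG00000008364), Txnip (ENSRNOG00000021201), Hspb1 (ENSRNOG00000023546) and Mt2A (ENSRNOG00000043098). The metallothionein gene Mt1 (ENSRNOG00000038047) had no row and was not analysed here. The table holds identifiers alone, and the reference tables used here pair none of them with a symbol, so the symbols are those of the list. RNA sequencing counted the reads of each gene in 20 libraries, 5 in each of 4 groups. All rats were male, of the outbred Sprague-Dawley stock, and weighed 250 to 300 g. Immobilization stress, 6 hours over 7 days, was used to produce SCM, the other group were normal controls, and each of the 10 rats gave 1 left ventricle and 1 brain library, matched by the number in their titles. No genotype, age, agent or brain region is given. The labelled tissues were not checked against cell type markers, because identifiers were not linked to other symbols.

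Most of these genes encode proteins that guard cells against oxidative, protein-folding or metal stress. NRF2, a transcription factor released from KEAP1 by electrophiles and oxidants, drives Hmox1 and Nqo1. Superoxide dismutases turn superoxide into hydrogen peroxide and catalase breaks the peroxide down. TXNIP works against this defence, since it binds thioredoxin and blocks its reducing activity. HSPB1 is a small heat shock protein that holds unfolded proteins and is abundant in muscle. Metallothioneins are short cysteine-rich proteins that bind zinc and copper, and their genes are known to be induced by metals, through the factor MTF1, and by glucocorticoids, the stress hormones of the adrenal cortex.

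Total counts ranged from 22386526 to 36251990 per library, so that a floor of 3 counts, under which a level is not told from 0, amounted to 0.0828 to 0.134 CPM, a unit in which the count is divided by the total of its library. All 8 genes passed the filter on low counts in both tissues. The left ventricle library of control rat 5 had the largest median difference from the mean of the other 4 of its group, 0.24 on the log2 scale over all genes averaging above 1 normalized CPM, against 0.15 to 0.20 in the other 9 left ventricle libraries. The brain library of SCM rat 2 stood as far from its group, by 0.24 against 0.11 to 0.17 in the other 9 brain libraries. The 10 most abundant genes took 33% of the left ventricle counts of control rat 4 and 27.2% to 31.1% of those of the other 9. Levels are given as normalized CPM, scaled within each tissue by the TMM method, which sets libraries to the level of their typical gene. These levels are not per unit of gene length, so they were compared between libraries and not between genes.

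Mt2A rose in the brain of SCM rats by edgeR's quasi-likelihood test within that tissue, and it was the 1 call among the 8 genes in either tissue by that test. In a joint edgeR fit of all 20 libraries the brain call was lost (adjusted p-value 0.284). Brain Mt2A stood at 31.9 ± 4.88 normalized CPM in SCM rats and at 10.5 ± 1.55 in control rats (SD, n = 5 each), a fold change of 3.05. The left ventricle level of Mt2A was also higher on average in SCM rats, 25.9 ± 18.9 against 5.26 ± 3.24 normalized CPM (SD, n = 5 each), but edgeR gave it an adjusted p-value of 0.0746. Sod2, the mitochondrial superoxide dismutase, was higher in all 5 SCM left ventricles than in any control one, with a small fold change of 1.19 (edgeR adjusted p-value 0.0649). Hspb1 averaged 2.13-fold higher in the SCM left ventricle, but its log2 fold change of 1.09 became 0.31 without SCM rat 1.

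**Figure D1:**
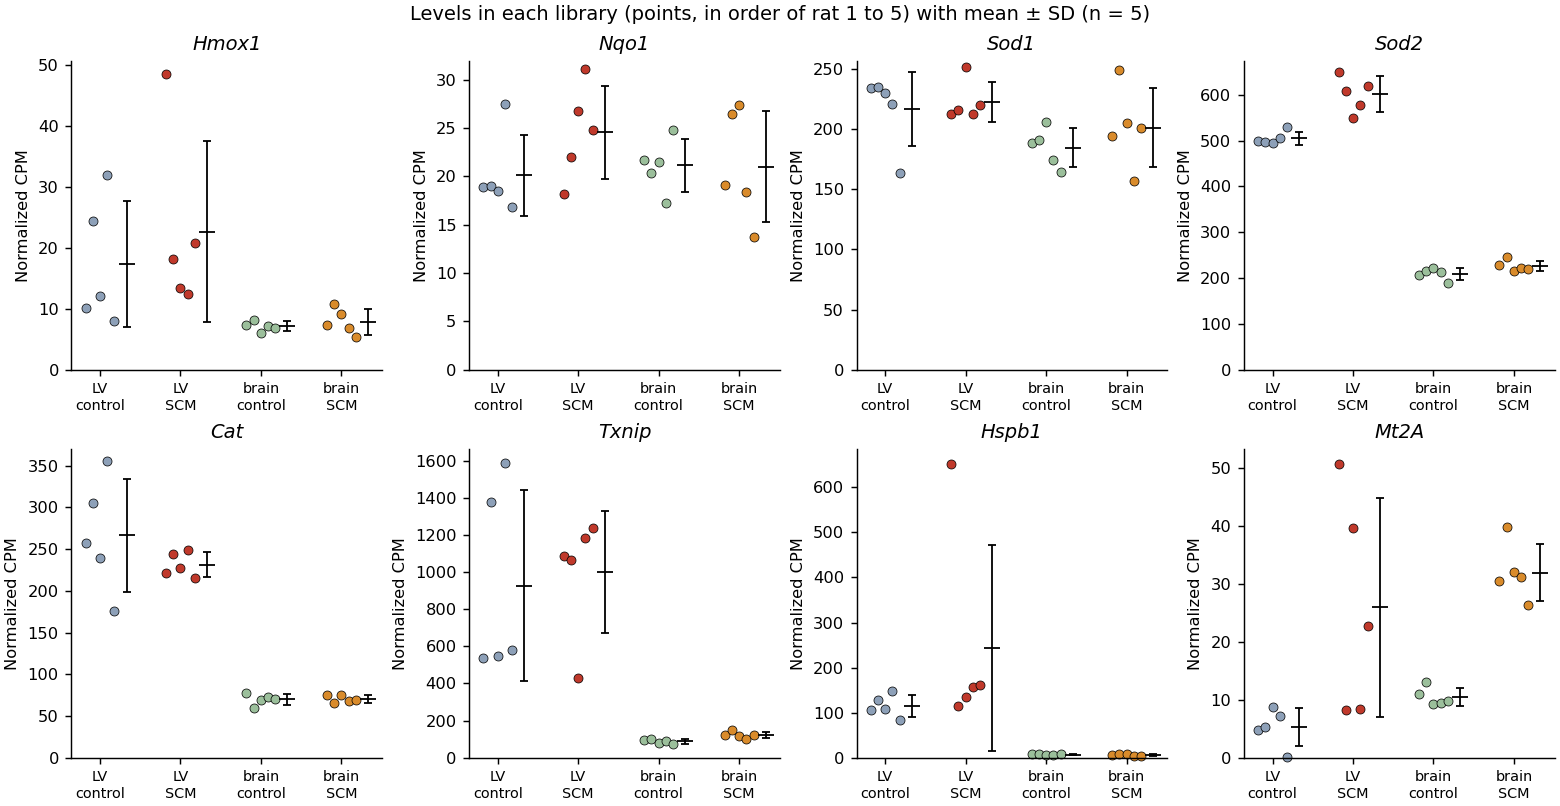
Normalized CPM (vertical axes, each from 0) of the 8 genes in every library by group, with left ventricle written as LV. Points are single rats in the order 1 to 5 and the bar beside them is the mean ± SD (n = 5). The Mt2A brain points of SCM rats, 26.3 to 39.7, lie above all control brain points, 9.24 to 13.0, and the Hspb1 point of SCM rat 1 in the left ventricle lies at 652.

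Across the group, the SCM and control counts of a tissue were tested against each other with edgeR's quasi-likelihood method, with p-values adjusted by the Benjamini-Hochberg method over all genes tested. In the brain, 1 of the 8 genes had an adjusted p-value under 0.05, where 0.175% of the 16002 genes tested had one (28 genes). In the left ventricle, 0 of the 8 had one with edgeR, where 5.21% of 13954 genes did (727 genes). At an unadjusted p-value under 0.05 there were 3 in the left ventricle, Sod2, Hspb1 and Mt2A, beside 23.2% of all genes tested. In the brain there were 2, Txnip and Mt2A, beside 14.3%. Other tools called other numbers of genes. DESeq2 called 2 of the 8 in the left ventricle, Sod2 and Mt2A, beside 11.9% of the genes to which it gave an adjusted p-value, and limma-voom called 0, beside 4.71%. In the brain DESeq2 called Txnip and Mt2A, beside 2.62%, and limma-voom called Mt2A alone, beside 0.181%. A joint edgeR fit of all 20 libraries called Sod2 and Mt2A in the left ventricle, beside 10.7%, and 0 of the 8 in the brain, beside 0.167%. The limits used by the study also ask for an absolute log2 fold change above 2. Under them 0 of the 8 passed in either tissue by edgeR within a tissue, against 0.229% of the left ventricle genes tested and 0% of the brain genes. Left ventricle Mt2A met both limits with DESeq2 (2.31, adjusted p-value 0.0433) and in the joint edgeR fit (2.28, adjusted p-value 0.00989). The share of all genes under both limits was not counted for these 2 fits. At an unadjusted p-value under 0.05 with that fold limit there was 1 in the left ventricle, Mt2A, beside 0.509% of all genes tested, and 0 in the brain, beside 0.144%. Log2 fold changes were above 0 for 7 left ventricle and 6 brain comparisons. Their median was 0.27 in the left ventricle, beside -0.01 over all genes tested, and 0.12 in the brain, beside 0.00. The control and SCM libraries did not overlap for 1 of the 8 genes in the left ventricle (Sod2), beside 7.6% of all genes tested, and for 1 in the brain (Mt2A), beside 3.86%. Both tissues came from the same rats, and in a bulk tissue fewer cells of a type and less RNA per cell cannot be told apart. The labels name no batch, and the p-values measure the spread between these rats.

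**Figure D2:**
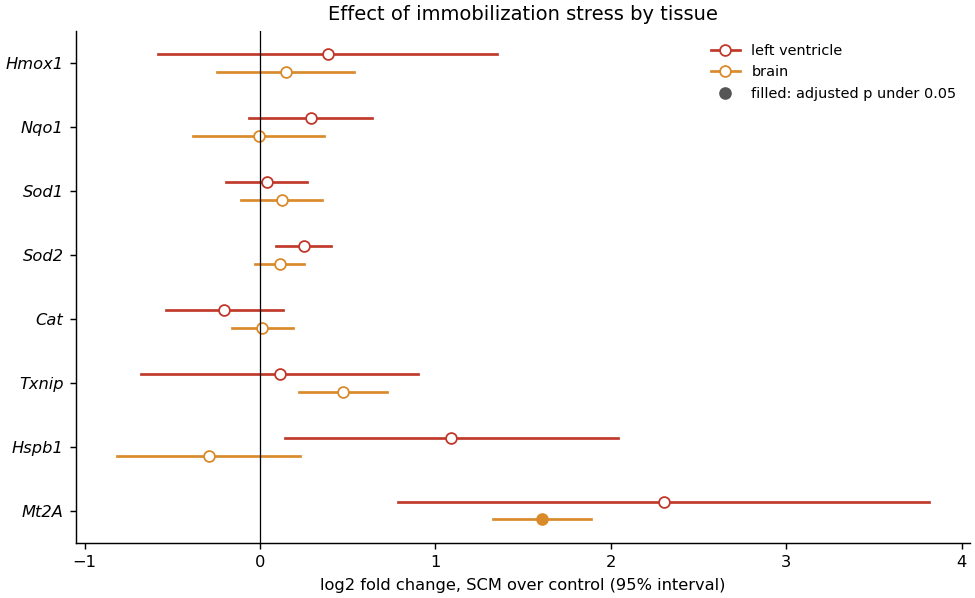
Log2 fold change of SCM over control (horizontal axis) for each gene in the left ventricle and the brain, with 95% intervals as lines. The filled point, Mt2A in the brain at 1.61, is the one with an adjusted p-value under 0.05 by edgeR within a tissue. The left ventricle intervals of Mt2A, from 0.79 to 3.81, and of Hspb1, from 0.14 to 2.04, are wide.

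Mt2A, the metallothionein of the group, is shown with its promoter because it is the gene that passed the test. The window is chr19:10838709-10838958 on the minus strand of GRCr8, the 250 bases before the RefSeq start of the gene, written 5′ to 3′. Capitals mark the letters TGCACNC or TGCGCNC on either strand, the core to which MTF1 is known to bind.
Mt2A: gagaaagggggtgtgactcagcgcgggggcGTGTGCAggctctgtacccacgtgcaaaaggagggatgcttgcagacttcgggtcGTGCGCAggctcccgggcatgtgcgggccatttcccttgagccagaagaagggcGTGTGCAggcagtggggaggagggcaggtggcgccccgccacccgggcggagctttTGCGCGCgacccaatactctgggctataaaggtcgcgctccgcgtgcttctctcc

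The Mt2A window held 4 such matches. Counted back from the start of the gene, 3 lay on the minus strand of the window, beginning 220, 165 and 111 bases before it, and 1 on the plus strand, beginning 55 bases before it. TGCACNC occurred at least once in 10.3% and TGCGCNC at least once in 11.8% of 33469 RefSeq promoter windows of the same length. The share of windows with several matches was not counted. A TATA box (TATAAA) began 31 bases before the start. These matches are a description of letters and not of binding.

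In the control brain, Mt2A stood at 11, 13.0, 9.24, 9.52 and 9.72 normalized CPM in rats 1 to 5. In the SCM brain it stood at 30.5, 39.7, 32.1, 31.1 and 26.3. The lowest SCM brain was thus above the highest control brain, and the spread within each group was small, with a coefficient of variation of 14.8% in control and 15.3% in SCM rats. The log2 fold change was 1.61 ± 0.13 (SE), with 0.000286 as its adjusted p-value in edgeR. Mt2A had the smallest p-value of the 16002 genes tested in the brain, while its absolute log2 fold change ranked 63rd. It kept an adjusted p-value under 0.05 in each of the 10 fits that left out 1 brain library, with log2 fold changes from 1.52 to 1.70. When brain and left ventricle libraries were fitted together, with 1 estimate of the spread of a gene for both, the brain log2 fold change was again 1.61 but the adjusted p-value was 0.284 (edgeR).

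Left ventricle Mt2A stood at 4.79, 5.31, 8.79, 7.23 and 0.208 normalized CPM in control rats 1 to 5. The value of control rat 5 came from 7 counts, where the other control left ventricles had 154 to 278. In the SCM left ventricle it stood at 50.7, 8.25, 39.7, 8.32 and 22.6. SCM rats 1, 3 and 5 lay above all controls, and SCM rats 2 and 4 lay just under control rat 3, so the groups overlapped. The coefficient of variation was 61.6% in control and 73.1% in SCM left ventricles. The log2 fold change was 2.3 ± 0.69 (SE), its 95% interval ran from 0.79 to 3.81, and its adjusted p-value of 0.0746 (edgeR) ranked 1152nd by p-value among 13954 genes. Without control rat 5 the log2 fold change was 1.99 and the adjusted p-value 0.0447 (edgeR), and the control mean was 6.53 ± 1.84 normalized CPM (SD, n = 4). Without SCM rat 1 the values were 1.91 and 0.155, by the same edgeR test. Adjusted p-values under 0.05 were also given by DESeq2 (0.0433) and by the edgeR fit of all 20 libraries (0.00989). That joint fit had no rat block and took 1 estimate of the spread of a gene for both tissues. In the brain the coefficient of variation of Mt2A was lower, 14.8% in control and 15.3% in SCM rats. The part of this in the left ventricle p-value was not tested. Metallothionein genes form a family of short, similar sequences, and how reads shared by them were counted is not known. The absolute level of Mt2A, and its differences between groups and between tissues, carry this uncertainty.

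**Figure D3:**
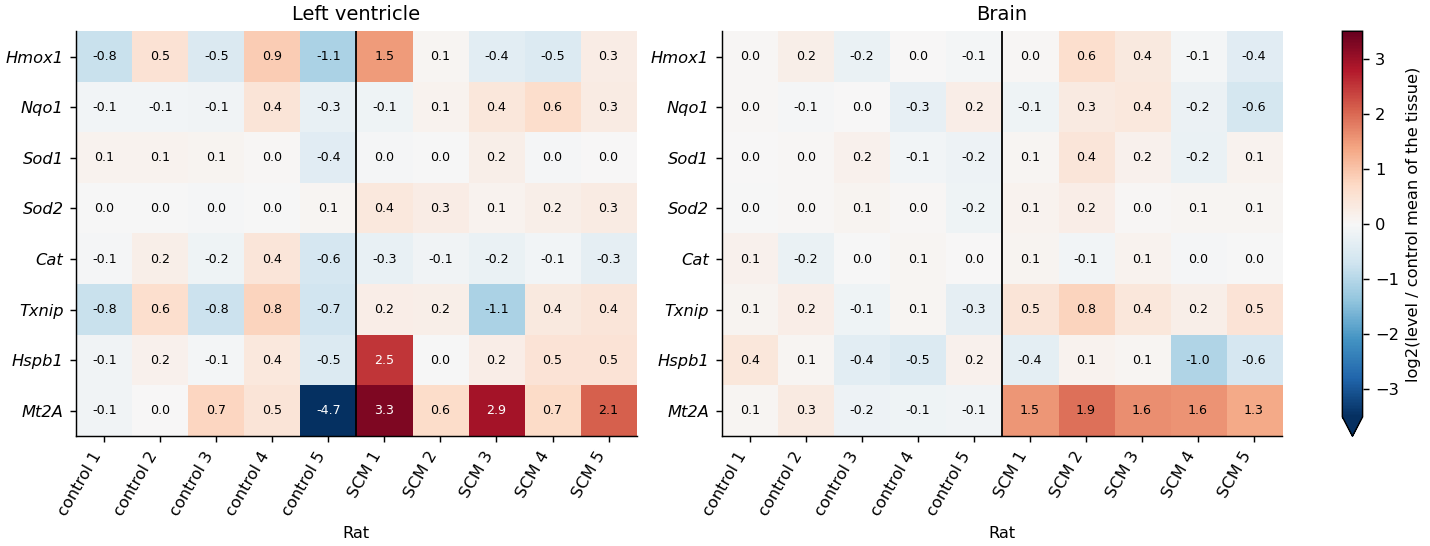
Level of each gene in each rat over the control mean of its tissue, as log2 (colour and printed value), with control rats left and SCM rats right of the black line. In the brain the Mt2A row is the one that separates the groups. In the left ventricle control rat 5 is low and SCM rats 1, 3 and 5 are high in the same row, and Hspb1 is high in SCM rat 1.

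Differences between groups were small for the 3 enzymes that remove superoxide and peroxide. Sod2, which works in the mitochondrial matrix, stood at 499, 497, 495, 505 and 530.0 normalized CPM in the control left ventricles and at 650.3, 608, 549, 578 and 620.0 in the SCM left ventricles. All SCM values lay above all control values. The log2 fold change was 0.25 ± 0.07 (SE), and edgeR's adjusted p-value was 0.0649. It was 0.0443 without control rat 5 and 0.0418 without SCM rat 3 (edgeR), 0.00311 with DESeq2 and 0.0309 in the edgeR fit of all 20 libraries. With libraries scaled by their totals alone, the Sod2 log2 fold change was 0.13 and the adjusted p-value 0.283 (edgeR). In the brain Sod2 stood at 209 ± 12.8 normalized CPM in control and 226 ± 11.8 in SCM rats (SD, n = 5 each), for a log2 fold change of 0.11 and an adjusted p-value of 0.428 (edgeR). All 5 SCM brains lay above the control mean and 2 of them above the highest control, so the groups overlapped.

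Sod1, the copper and zinc dismutase of the cytosol, was nearly level between groups. Its left ventricle level was 217 ± 30.4 normalized CPM in control and 222 ± 16.7 in SCM rats (SD, n = 5 each), with a 95% interval of the fold change from 0.875 to 1.20. In the brain it was 185 ± 15.9 in control and 201 ± 33 in SCM rats (SD, n = 5 each), with an interval from 0.927 to 1.28. The brain log2 fold change of Sod1 was 0.12, and it was 0.034 without SCM rat 2 and 0.20 without SCM rat 4. Control rat 5 had the lowest Sod1 level of the left ventricles, 163 against 212 to 252 in the other 9, and without it the log2 fold change went from 0.04 to -0.05. Cat, which encodes catalase, was 267 ± 67.6 in control and 231 ± 14.7 in SCM left ventricles (SD, n = 5 each). The control values of Cat were spread from 176 to 355, and all 5 SCM values lay inside that range, between 215 and 249. Its log2 fold change was -0.20 ± 0.15 (SE), at an adjusted p-value of 0.457 (edgeR), and it was -0.079 without control rat 4 and -0.32 without control rat 5. In the brain Cat was 70.0 ± 6.62 in control and 70.7 ± 4.62 in SCM rats (SD, n = 5 each), and its 95% interval, a fold change of 0.897 to 1.14, did not cover a rise of more than 1.14-fold.

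Hmox1 and Nqo1, the NRF2 targets of the group, did not pass the test in either tissue. Hmox1 encodes heme oxygenase 1, which breaks heme down to biliverdin, iron and carbon monoxide. In the left ventricle it stood at 10.1, 24.4, 12.1, 31.9 and 8.0 normalized CPM in control rats and at 48.5, 18.2, 13.4, 12.4 and 20.7 in SCM rats. SCM rat 1 lay above every control, and the other 4 SCM rats lay within the control range. The log2 fold change was 0.38 ± 0.44 (SE), at an adjusted p-value of 0.640 (edgeR). Without SCM rat 1 it was -0.10, so the sign of the difference came from that rat, and without control rat 4 it was 0.73. In the brain Hmox1 was 7.11 ± 0.795 in control and 7.85 ± 2.08 in SCM rats (SD, n = 5 each), with a 95% interval of the fold change from 0.844 to 1.45. The brain log2 fold change of 0.15 became 0.0046 without SCM rat 2 and 0.25 without SCM rat 5.

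Nqo1 encodes a quinone reductase of the cytosol. Its left ventricle level was 18.9, 19.0, 18.5, 27.5 and 16.8 normalized CPM in control rats and 18.2, 22.1, 26.7, 31.1 and 24.8 in SCM rats. In 4 of 5 SCM rats it was above the control mean, and the log2 fold change was 0.29 ± 0.16 (SE), at an adjusted p-value of 0.312 (edgeR). It was 0.19 without SCM rat 4, 0.43 without control rat 4 and 0.19 with libraries scaled by their totals alone. In the brain Nqo1 was 21.1 ± 2.74 in control and 21.0 ± 5.78 in SCM rats (SD, n = 5 each), and the 95% interval of the fold change ran from 0.768 to 1.29.

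Txnip, the inhibitor of thioredoxin, was higher on average in the SCM brain. It stood at 93.5, 103, 79.8, 92.4 and 71.6 normalized CPM in control brains and at 121, 151, 115, 102 and 122 in SCM brains. In 4 of the 5 SCM brains it lay above the highest control, and that of SCM rat 4 lay just under it. The log2 fold change was 0.47 ± 0.12 (SE) and ranked 167th by p-value among 16002 genes. It was not called by edgeR (adjusted p-value 0.126) and was called by DESeq2 (0.0123). Left ventricle levels of Txnip were widely spread in both groups. Control rats 1, 3 and 5 stood at 539, 545 and 582 normalized CPM and control rats 2 and 4 at 1379.6 and 1587. SCM rat 3 stood at 428 and the other 4 SCM rats at 1066 to 1237. The difference between groups, a log2 fold change of 0.11 ± 0.36 (SE), was small beside this spread (adjusted p-value 0.888, edgeR). Without control rat 1, 3 or 5 it lay between -0.032 and -0.016, and without control rat 4 it was 0.40.

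Hspb1 is shown with its promoter because its mean differed in the left ventricle by the largest fold after Mt2A. The window is chr12:26432302-26432551 on the minus strand of GRCr8, the 250 bases before the RefSeq start, written 5′ to 3′. Capitals mark the letters GAANNTTC or TTCNNGAA, each of which reads the same on both strands and holds 2 units of the element bound by heat shock factor.
Hspb1: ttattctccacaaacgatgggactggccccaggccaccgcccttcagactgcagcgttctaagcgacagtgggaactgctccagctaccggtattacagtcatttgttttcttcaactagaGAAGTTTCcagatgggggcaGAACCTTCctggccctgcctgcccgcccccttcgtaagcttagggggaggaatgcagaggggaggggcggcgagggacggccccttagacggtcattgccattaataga

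The Hspb1 window held 2 matches, both GAANNTTC, beginning 129 and 109 bases before the start. GAANNTTC occurred at least once in 7.23% and TTCNNGAA at least once in 7.48% of the RefSeq windows, and windows with several matches were not counted. RefSeq windows were found for 6 of the 8 genes, all but Hmox1 and Txnip. Those of Nqo1, Sod2, Cat and Mt2A had no match to these letters, and that of Sod1 had 3. The letters TGACNNNGC, the core of the element bound by NRF2, were matched once in the windows of Sod2 and Mt2A and at least once in 10.1% of all windows.

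Left ventricle Hspb1 stood at 106, 128, 108, 148 and 82.7 normalized CPM in control rats 1 to 5. In SCM rats it stood at 652, 114, 134, 158 and 160.5. SCM rat 1 stood far above the other 4 SCM rats, and SCM rats 4 and 5 lay above the highest control by a narrow margin. The log2 fold change of 1.09 ± 0.44 (SE) had an adjusted p-value of 0.158 (edgeR). Without SCM rat 1 the SCM mean was 142 ± 21.9 normalized CPM (SD, n = 4) against 114 ± 24.6 in control rats (SD, n = 5), and the log2 fold change was 0.31 with an adjusted p-value of 0.314 (edgeR). The same rat had the highest left ventricle level of Hmox1, Mt2A and Sod2 among the SCM rats. In its brain, Hspb1 stood at 5.52 normalized CPM, the median of the SCM brains. In the brain as a whole Hspb1 was low, at 7.05 ± 1.77 in control and 5.74 ± 1.82 in SCM rats (SD, n = 5 each), and the log2 fold change was -0.29 ± 0.24 (SE), with an adjusted p-value of 0.594 (edgeR). It was -0.15 without SCM rat 4 and -0.17 without control rat 1.

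**Figure D4:**
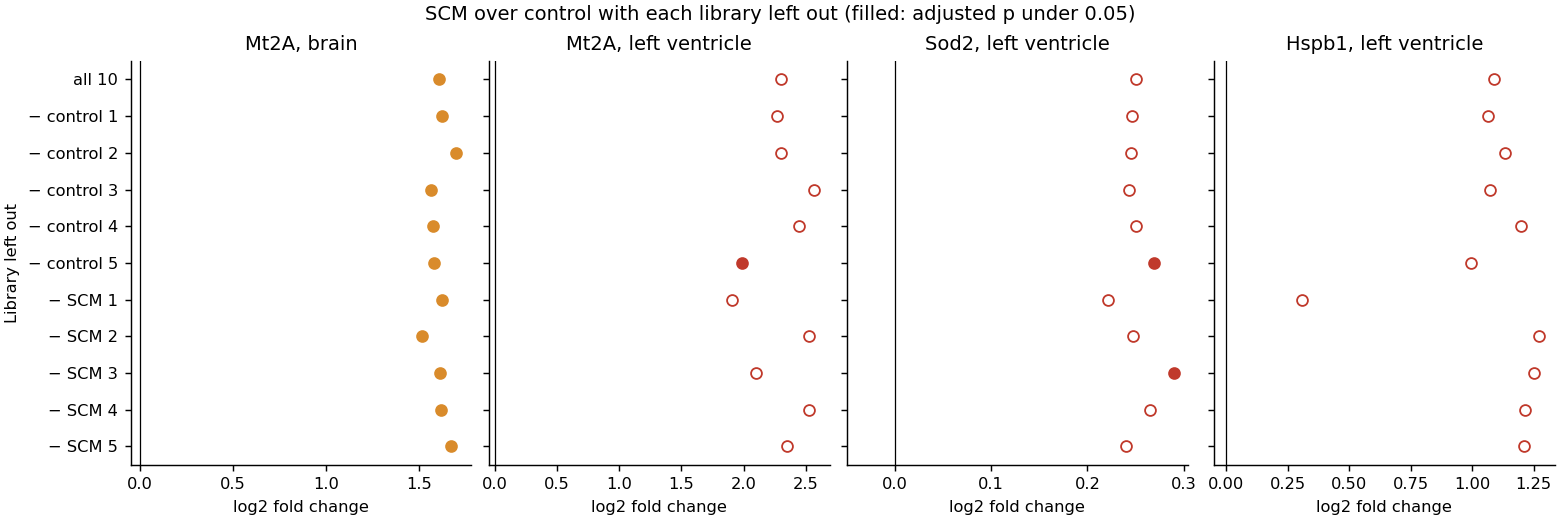
Log2 fold change of SCM over control (horizontal axes, with different ranges) for Mt2A in the brain and for Mt2A, Sod2 and Hspb1 in the left ventricle, with all 10 libraries and with each left out in turn. Filled points have an adjusted p-value under 0.05 by edgeR. Mt2A in the brain is filled throughout, Mt2A in the left ventricle is filled only without control rat 5, Sod2 is filled without control rat 5 or SCM rat 3, and Hspb1 drops to 0.31 without SCM rat 1.

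Whether stress acted differently on the 2 tissues was tested as the interaction of tissue and stress, in 1 model of the 20 libraries that blocks on the rat. By edgeR, 0 of the 8 genes had an adjusted p-value under 0.05, where 0.754% of 16720 genes had one, and 0 had an unadjusted p-value under 0.05, where 13.9% did. Limma-voom also called 0, beside 0.981% of all genes. For Mt2A the stress effect in the left ventricle exceeded that in the brain by 0.62 on the log2 scale with a standard error of 0.82 (adjusted p-value 0.789, edgeR). With each rat left out, this excess ran from 0.08 (without control rat 5) to 1.06 (without SCM rat 2). For Hspb1 the excess was 1.04 with a standard error of 0.50 (adjusted p-value 0.376, edgeR). It was 0.60 without SCM rat 1 and 1.41 without SCM rat 2. Mt2A passed edgeR's test within the brain and not within the left ventricle, where DESeq2 called it in both and the joint edgeR fit of all 20 libraries only in the left ventricle, and the data do not show that its response to stress differed between them.

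The tissues of the control rats were compared by edgeR with the rat as a block, and 7 of the 8 genes had an adjusted p-value under 0.05, where 79.7% of 15909 genes had one. All 7 were lower in the brain than in the left ventricle, beside 37.1% of all genes tested (5904, against 6780 higher). The median difference, brain over left ventricle, was -2.02 on the log2 scale over the 8 genes and 0.12 over all genes. The order of the differences, brain over left ventricle on the log2 scale, ran from Hspb1 (-4.85) through Txnip (-4.06), Cat (-2.73), Sod2 (-2.11), Hmox1 (-1.93) and Sod1 (-1.06) to Nqo1 (-0.75), and neighbours in this order were not tested against each other. Mt2A differed by 0.50 with a standard error of 0.64 (adjusted p-value 0.489, edgeR), and without control rat 5 by -0.08. These values depend on how the 2 tissues are set to a common scale, because TMM multiplied the library size of the brain by 1.73 relative to that of the left ventricle. With libraries scaled by their totals alone, a choice made after seeing the data, 6 of the 8 genes kept an adjusted p-value under 0.05, beside 83.5% of all genes. All 6 were lower in the brain, beside 20.8% (3310, against 9971 higher). Hspb1 then differed by -4.06, Txnip by -3.27 and Sod1 by -0.26, and Nqo1 by 0.04 (adjusted p-value 0.806, edgeR), so the direction of Nqo1 rests on the scaling. Mt2A differed by 1.29 on that scale (adjusted p-value 0.0866, edgeR). The largest differences, those of Hspb1 and Txnip, had standard errors of 0.23 and 0.26.

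Levels of the genes were also followed by rat. After removal of the group means, the left ventricle level of a gene was compared with its brain level in the same 10 rats. Pearson's r ran from -0.30 (Nqo1) to 0.41 (Txnip), 0 of the 8 had an unadjusted p-value under 0.05 in the exact permutation test of rats within groups, and all 8 adjusted p-values were 0.933. For Mt2A the r was -0.16 (Spearman's rho -0.21), so a rat with high Mt2A in the left ventricle was not seen to have high Mt2A in the brain. Within a tissue, 56 pairs of genes were compared in the same way, 28 in each tissue. An adjusted p-value under 0.05 was reached by 0 pairs, while 9 had an unadjusted p-value under 0.05 by Pearson's r and 5 by Spearman's rho. The closest was Hmox1 with Mt2A in the brain, with r = 0.86 (exact permutation p = 0.00132, adjusted 0.0739) and rho = 0.84 (exact permutation p = 0.00167). Its r was 0.68 without the 2 rats farthest from the median of Hmox1. Next was Hmox1 with Hspb1 in the left ventricle, with r = 0.79 (exact permutation p = 0.00542, adjusted 0.152) and rho = 0.67 (exact permutation p = 0.0244), and its r was 0.48 without the 2 farthest rats. Genes of a tissue were read from 1 library per rat and so share its depth and dissection, whose part in the correlations was not tested.

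Some libraries were extreme for several of the genes at once. The left ventricle of control rat 5 was the lowest of its group for 6 of the 8 genes and the highest for 1 (Sod2), and that of control rat 4 was the highest for 5. The left ventricle of SCM rat 1 was the highest of its group for 4, and the brain of SCM rat 2 was the highest of its group for 6. That brain library also had the largest total count of the brain libraries, 35988591, and its 10 most abundant genes took 11.1% of the counts, beside 7.76% to 9.13% in the other brains. The left ventricle of control rat 5 and the brain of SCM rat 2 also stood farthest from their groups over all genes (0.24 each, log2 scale). The share of all genes for which each library was lowest or highest was not computed. These counts therefore cannot be read as a trait of the 8 genes. The part of depth and composition in these levels was not tested.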

How the data were processed

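RNA of 5 control and 5 SCM rats, from left ventricle and brain, was sequenced from NEBNext Ultra libraries. The values deposited by the authors are raw counts of reads for each gene, 1 column for each of 20 libraries, with no pooling. The submitters' processing notes name HISAT2, StringTie, SAMtools and the build mRatBN7.2, without versions. The counting program and strand setting are not given in the sources used here. Groups, tissues and rats were taken from sample titles. The members and gene lists were chosen with earlier results of these data known.

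Counts were analysed with edgeR 4.0.16 in R 4.3.3 (TMM, filterByExpr with a minimum count of 10 and total of 15, quasi-likelihood test, Benjamini-Hochberg adjustment over all genes tested). A gene was called at an adjusted p-value under 0.05. The interaction and the comparison of control tissues had the rat as a block, since a brain and a left ventricle with the same title number were taken as 1 rat. The deviations of the 2 tissues of a rat had correlations across genes of 0.07 to 0.22. Tissues of different rats were not compared in this way, so these values do not test the pairing. Correlations used log2(normalized CPM + 0.5) centred within groups, with all 14400 orderings of rats within groups, and covered 8 genes between tissues and 56 pairs. Alternatives were RLE and upper-quartile scaling, DESeq2 1.42.0, limma-voom (limma 3.58.1), other filters and the replicate number as a block. Others were a joint fit of both tissues without the rat block, and leaving out each library or rat. Scaling by totals was added after seeing the data. Replicate pairs differed by at least 11.6 times the sampling variance, so none looked like a repeated deposit.

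The fits were tested on simulated data. Named genes were all members. Wider pathway lists, marker lists and most similar genes were to be named too, but 0 genes of the RefSeq table carry an Ensembl identifier, so these were not analysed here. Promoter windows were matched by symbol to RefSeq (GRCr8) and cover 250 bases before each start. The 95% intervals of fold changes rest on the spread between rats, and the floor of 3 counts covers counting error only. The depth per library is given with the results.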

Additional observations from a re-analysis of the deposited data

Results flagged for a closer look

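In 32 groups of 5 libraries (8 genes in 4 groups), a library lay far from the other 4 in 7, against a nominal 1.6 at 1 in 20. That rate holds for independent groups of normally distributed values, whereas the 8 genes share the same 20 libraries. The share over all genes was not computed, so the count is not a result about these genes. All 7 were in the left ventricle. The rule used levels without logarithms, and it did not flag left ventricle Mt2A of control rat 5, at 0.208 normalized CPM against 4.79 to 8.79. Hspb1 was at 652 normalized CPM in SCM rat 1, against 114 to 160.5 in the other 4. Hmox1 was at 48.5 in the same library, against 12.4 to 20.7. Txnip was at 428 in SCM rat 3, against 1066 to 1237, and Sod1 was at 252 there, against 212 to 219.9. Sod1 was at 163 in control rat 5, against 221 to 235, and Sod2 was at 530.0 there, against 495 to 505. Nqo1 was at 27.5 in control rat 4, against 16.8 to 19.0. These values were not linked here to any property of the rats.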

How the results depend on the processing

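Among the results on several genes, the number called in the left ventricle was 0, and it was 2 with DESeq2 and 2 in the fit of all 20 libraries. It ran from 0 to 2 when each library was left out. The number called in the brain was 1, and it was 2 with DESeq2, 0 in the fit of all 20 libraries and 0 with the fold change limit. It was 1 in all 10 fits that left out a library. The interaction gave 0 and the comparison of control tissues 7 in every alternative run, except 6 for the latter with totals alone, while 12132 to 13281 genes in all were called in the latter. No pair or between-tissue correlation passed in any alternative run. With the replicate number as a block, the left ventricle gave 0 members and the brain 1, and brain Mt2A had an adjusted p-value of 0.00147 (edgeR). Same-numbered control and SCM rats are different animals, and their deviations had correlations from -0.08 to 0.15 (left ventricle) and -0.22 to 0.14 (brain). Rats of unlike numbers were not compared in this way, so whether same-numbered rats share more than a number was not tested. Counts over all genes also differed. In the left ventricle 727 genes were called, against 1625 with DESeq2, 1789 in the fit of all 20 libraries and 314 with the replicate block. The brain had 28, against 402 with DESeq2, 15 with the replicate block and 18 with totals alone. The interaction had 126, against 285 without the rat block and 198 when every library had to hold 10 counts of a gene. Leaving out libraries or rats gave 287 to 997 in the left ventricle, 4 to 112 in the brain and 10 to 217 for the interaction. Without the rat block the interaction again gave 0 and the control tissues 7.

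Directions changed in the following fits, and the cause was not tested. With totals alone, Sod1 in the left ventricle was at -0.073, Cat in the brain at -0.020 and Nqo1 between control tissues at 0.045. Leaving out libraries in turn moved the log2 fold change of Hmox1 from -0.10 to 0.73, of Sod1 from -0.048 to 0.069 and of Txnip from -0.032 to 0.40 in the left ventricle. In the brain it moved Nqo1 from -0.12 to 0.11 and Cat from -0.039 to 0.051. The excess of the left ventricle effect ran from -0.094 to 0.50 for Hmox1 and from -0.17 to 0.036 for Sod1, and Mt2A between control tissues ran from -0.080 to 0.87 and was 1.29 with totals alone. None of these differences passed the test in edgeR with all libraries, except that of Nqo1 between control tissues. DESeq2 gave no adjusted p-value for Hspb1 in the left ventricle. Mt2A in the left ventricle could not be fitted with at least 10 counts in every library, since control rat 5 had 7. Among the 8 genes, that was the lowest count in any library and the only one under 10. The alternatives for the wider pathway lists could not be run without symbols for the other identifiers.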
